A study of Mus musculus with 2 samples.

Results

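The genes described here are the nuclear-encoded subunits of the mitochondrial respiratory chain and ATP synthase, with a few assembly factors that carry the same names. They were chosen by gene symbol alone: names that start with Nduf followed by a, b, c, s or v, the Sdh genes, names that start with Uqcr, Cyc1, names that start with Cox followed by 4 to 8, and names that start with Atp5. A probe counted if the symbol in the annotation or the current symbol of its gene ID matched. This gave 83 of 18036 genes on the array, measured by 105 of 25697 probes. Complex I was represented by 33 genes, complex II by 3, complex III by 8, complex IV by 17 and complex V by 16. A further 6 were assembly factors, a pseudogene or other genes.

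Epidermis was taken from mice at postnatal day 5, strain C57BL6. The knockout (KO) mice carried CaSR fl/fl alleles, with the calcium-sensing receptor gene Casr flanked by recombination sites, and K14-Cre, a recombinase transgene under the keratin 14 promoter that cuts floxed DNA in keratinocytes of the basal layer and their descendants, so other epidermal cells keep the gene. Their littermate controls (CON) are labelled CaSR fl/fl as well, so both groups share the floxed alleles. Back skin was treated with dispase to part the epidermis from the dermis, and RNA of 3 mice was combined into 1 sample for each genotype, which was hybridised to 1 Illumina bead array. A sentence of the labels' protocols speaks of a VDR KO pool, whereas every other label of the sample names CaSR. With 1 pool for each genotype there is no replicate error and no significance test, and every difference below describes these 2 pools. In tissue RNA of this kind, fewer cells of a type and less RNA per cell cannot be told apart.

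The respiratory chain passes electrons from NADH (complex I) and succinate (complex II) through ubiquinone to complex III, and from there through cytochrome c to complex IV, which reduces oxygen. Complexes I, III and IV pump protons across the inner mitochondrial membrane, and complex V, the ATP synthase, uses the return of these protons to make ATP. Most subunits are encoded in the nucleus, and a small hydrophobic core is encoded by mitochondrial DNA, for which the array annotation held no probe under the names searched. In keratinocytes mitochondria are abundant in the basal and spinous layers and are removed as the cells cornify.

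The arrays gave similar overall detection. At a detection limit of p 0.01, 42.0% of all probes passed in the KO pool and 42.4% in the CON pool. All 9 keratinocyte markers with a probe were detected in both pools, with signals that summed to 89901 in KO and 93579 in CON. Of the 9, 4 lay above 0 and 5 below. Markers of the basal layer went both ways, with the keratin genes Krt5 (16377 in KO and 19907 in CON) and Krt14 (15114 in KO and 17418 in CON) lower in KO and Trp63 (6548 in KO and 5839 in CON) higher. Markers of the upper layers did too, with the cornified envelope gene Ivl (2319 in KO and 3250 in CON) lower and the keratin genes Krt1 (9178 in KO and 8498 in CON) and Krt10 (17016 in KO and 14628 in CON) higher. The part of the keratinocyte layers in the results below was not tested. The Casr probe (148.2 in KO and 122.9 in CON) was not above background in either pool and does not check the genotype. The Y-linked genes Ddx3y (1337 in KO and 995.7 in CON) and Eif2s3y (414.3 in KO and 323.5 in CON) had higher signals in the KO pool, and the part of pool composition in the results below was not tested.

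Probes of respiratory chain genes were bright on both arrays, and most of their signals lay within 1.2-fold between the pools. Of the 83 genes, 74 were detected in at least 1 pool and 72 in both. The median signal of these 74 was 2821 in KO and 2754 in CON, beside 420.7 in KO and 420.0 in CON over all 8564 genes detected. Their median log2 ratio, KO over CON, was 0.03, beside 0.01 for all genes detected. The SD of the log2 ratios across genes was 0.14 for the members and 0.15 for all genes, and 93.2% of members lay within 1.2-fold, beside 94.1% of all genes.

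Higher signals in KO by at least 1.2-fold were found for 5 of the 74 genes, Cox6c, Cox7b, Ndufb6, Atp5g3 and Atp5a1, and lower signals by at least 1.2-fold for 0, where the ratio of Sdhd is a bound. Over all genes detected, 2.91% were at least 1.2-fold higher and 2.95% at least 1.2-fold lower. Cox7b was above background in KO alone, so its ratio is a bound too, and it entered through that pool. Of the 72 members detected in both pools 5.56% were at least 1.2-fold higher, beside 3.04% of all such genes. No member passed 1.5-fold in either direction, where all genes gave 0.187% higher and 0.234% lower. A log2 ratio above 0 was found for 40 members and one below 0 for 32, beside 52.1% above and 47.5% below 0 over all genes. Cox5a and Ndufc1 had the same signal in both pools. When the values before normalization were scaled to equal medians instead, 50 members (67.6%) lay above 0, as did 65.0% of all genes.

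As a scale of precision within the arrays, the log2 ratios of detected probes for 1 gene had an SD of 0.11 when pooled across 1840 genes, and of 0.13 across the 11 members with several such probes. For the members, 2 such SDs correspond to 1.19-fold. This SD holds no variation between mice, pools or hybridisations.

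**Figure D1:**
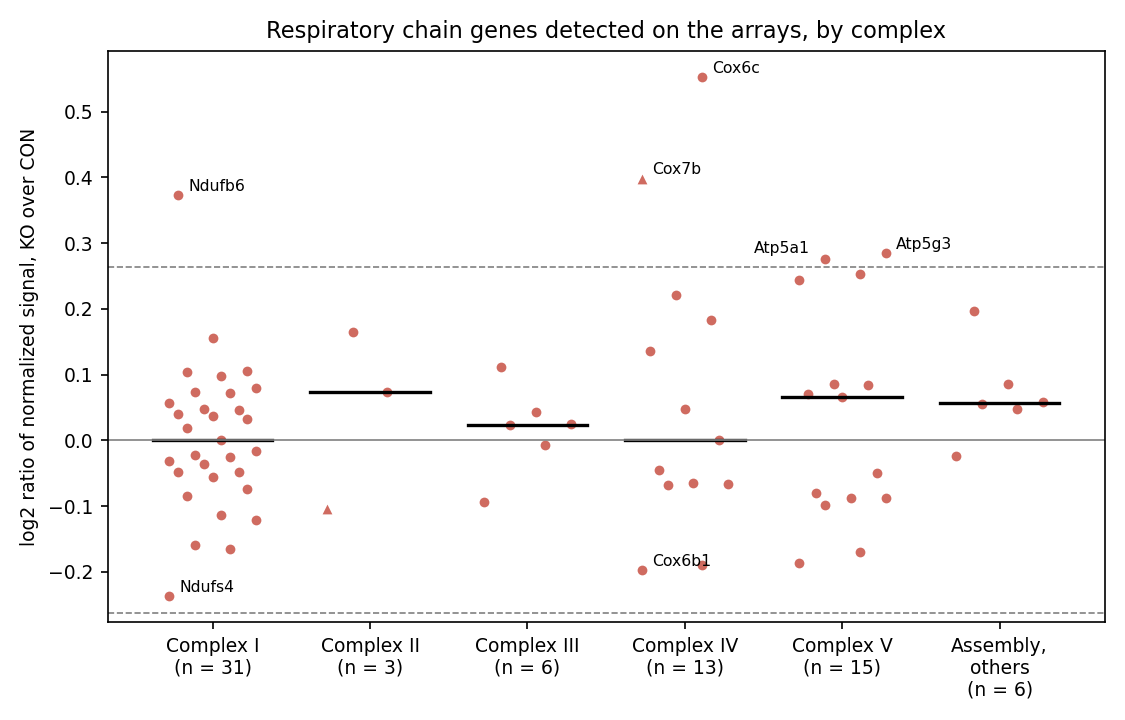
Log2 ratio of normalized signal, KO over CON, for the 74 detected respiratory chain genes, grouped by complex. Each point is 1 gene, triangles are bounds for genes detected in 1 pool, black bars are medians and dashed lines mark 1.2-fold. Points of complex I lie between -0.24 and 0.37 around a median of 0.00, and Cox6c of complex IV is the highest point at 0.55.

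Genes of the respiratory chain are known to share binding sites for the transcription factors NRF1, GABP (an ETS factor), YY1 and the estrogen-related receptors (ERR) near their start sites. RefSeq promoter windows of GRCm38.p6, from 250 bases before to 50 bases after each start, were matched by symbol for 66 of the 83 genes (71 windows). The letters searched on both strands were GCGCATGCG for NRF1, CCGGAAG for ETS and GABP, AAGATGGCG for YY1 and TCAAGGTCA for ERR. The NRF1 letters are nearly their own reverse complement, so 1 site can match on both strands, and matches of different motifs overlapped in 0 windows. NRF1 letters were found in 11.3% of the members' windows, beside 3.55% of windows of genes detected on the arrays and 1.75% of all windows. YY1 letters were in 9.86% of the members' windows, beside 3.04% for detected genes and 1.40% of all windows. The ETS letters gave 23.9%, beside 17.3% and 8.86%, and the ERR letters 2.82% (2 windows), beside 0.292% and 0.423%. A match describes the letters only and does not show a bound site.

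**Figure D2:**
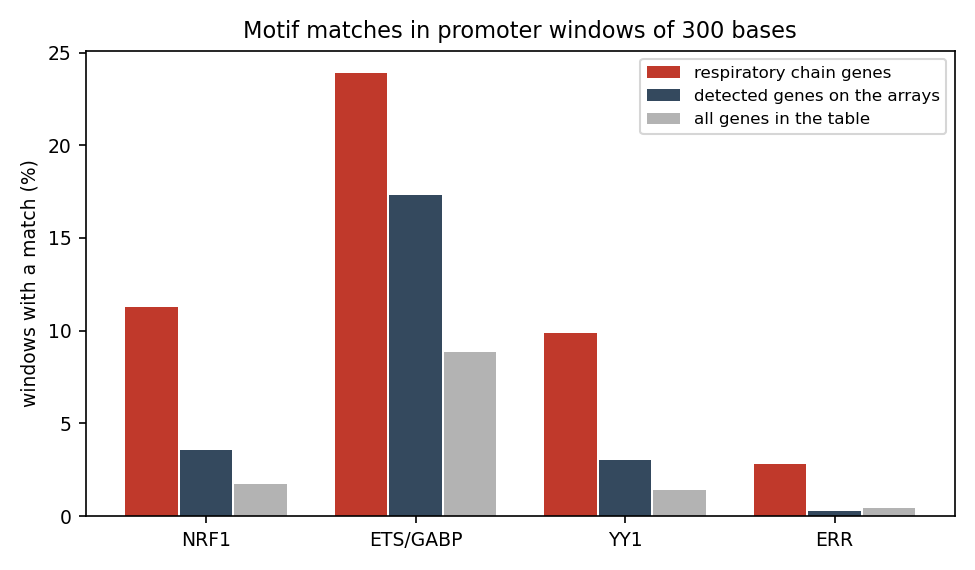
Share of promoter windows of 300 bases with a match to each motif, for respiratory chain genes (red, 71 windows), genes detected on the arrays (blue, 8561 windows) and all genes of the RefSeq table (grey, 32851 windows). The respiratory chain bars are the highest of each group, with 23.9% for the ETS letters and 11.3% for NRF1.

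The KO over CON ratios of members with and without these letters overlapped. The 7 detected members with NRF1 letters had a median log2 ratio of 0.02 (range -0.19 to 0.06), and the 55 without them 0.00 (range -0.24 to 0.40). The 7 with YY1 letters had a median of 0.00, and the 55 without them 0.02. For the ETS letters the medians were 0.00 over 16 members with them and 0.01 over 46 without. The 2 members with ERR letters lay on either side of 0, with Atp5g3 at 0.28 and Sdhd at a bound of -0.10.

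Upstream sequences are shown for 3 of the genes at least 1.2-fold higher in KO, Cox7b at chrX:106015450-106015699 (+ strand), Ndufb6 at chr4:40279422-40279671 (- strand) and Atp5g3 at chr2:73911327-73911576 (- strand). They are set beside those of the 3 members with the lowest log2 ratios, Ndufs4 at chr13:114388095-114388344 (- strand), Cox6b1 at chr7:30626115-30626364 (- strand) and Cox6a1 at chr5:115348959-115349208 (- strand). None of these 3 was 1.2-fold lower, and their ratios are those of the brightest probe. The 3 other probes of Ndufs4 were higher in KO, and the other probe of Cox6b1 was at 0.01 in log2 ratio. Each is the 250 bases before the start, 5′ to 3′ on the strand of the gene, from RefSeq (GRCm38.p6). Capitals mark the motif letters given above.
Cox7b: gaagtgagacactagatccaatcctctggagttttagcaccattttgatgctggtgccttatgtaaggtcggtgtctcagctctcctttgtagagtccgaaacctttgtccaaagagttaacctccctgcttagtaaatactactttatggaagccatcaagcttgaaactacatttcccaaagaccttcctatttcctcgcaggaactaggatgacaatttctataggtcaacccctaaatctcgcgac
Ndufb6: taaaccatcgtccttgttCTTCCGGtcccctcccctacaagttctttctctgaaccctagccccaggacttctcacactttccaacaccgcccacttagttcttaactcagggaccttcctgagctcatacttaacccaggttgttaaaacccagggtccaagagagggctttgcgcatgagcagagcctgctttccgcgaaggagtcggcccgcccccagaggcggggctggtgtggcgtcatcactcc
Atp5g3: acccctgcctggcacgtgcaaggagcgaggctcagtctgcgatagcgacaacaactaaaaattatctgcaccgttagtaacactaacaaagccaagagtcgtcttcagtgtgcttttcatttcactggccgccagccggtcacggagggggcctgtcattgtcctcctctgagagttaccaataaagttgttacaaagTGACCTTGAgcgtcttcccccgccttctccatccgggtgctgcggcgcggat
Ndufs4: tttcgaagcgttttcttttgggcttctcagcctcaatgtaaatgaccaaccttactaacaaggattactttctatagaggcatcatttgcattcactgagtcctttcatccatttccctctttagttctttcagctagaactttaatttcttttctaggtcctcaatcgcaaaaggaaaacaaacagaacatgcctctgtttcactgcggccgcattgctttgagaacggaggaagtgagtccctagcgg
Cox6b1: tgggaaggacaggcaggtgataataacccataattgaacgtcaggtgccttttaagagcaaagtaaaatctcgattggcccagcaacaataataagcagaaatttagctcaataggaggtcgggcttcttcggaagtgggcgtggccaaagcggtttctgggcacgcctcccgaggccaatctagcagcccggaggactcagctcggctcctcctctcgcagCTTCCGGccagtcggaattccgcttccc
Cox6a1: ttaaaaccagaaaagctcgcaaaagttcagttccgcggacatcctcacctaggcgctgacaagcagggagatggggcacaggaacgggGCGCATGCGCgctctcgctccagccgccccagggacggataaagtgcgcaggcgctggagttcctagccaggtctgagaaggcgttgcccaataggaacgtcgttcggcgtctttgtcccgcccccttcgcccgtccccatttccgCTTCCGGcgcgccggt

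Among the genes higher in KO, the Cox7b stretch holds none of the letters, Ndufb6 has an ETS match far upstream (bases -232 to -226 from the start) and Atp5g3 an ERR match at bases -52 to -44. Among the members with the lowest ratios, Cox6a1 has NRF1 letters at bases -162 to -153 and an ETS match at -16 to -10, and Cox6b1 an ETS match at -28 to -22. Ndufs4 has YY1 letters past the start, at bases 36 to 44, outside the stretch shown. The GC content of the stretches ran between 43.6% and 56.4% in the higher genes and between 42.0% and 62.8% in those with the lowest ratios.

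Complex I, the NADH dehydrogenase, was even between the pools. Of its 31 detected genes 15 had a log2 ratio above 0 and 15 below, with a median of 0.00, and 96.8% lay within 1.2-fold. Signals ran between 180.7 and 8928 in KO and between 178.4 and 9230 in CON, with Ndufs6 the brightest in both. The signals of different genes come from different probes and are not compared as transcript levels.

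The core subunits of complex I carry the flavin and the iron-sulfur clusters, and 6 of the nuclear-encoded ones were detected. Ndufv1, the NADH-binding flavoprotein subunit, had 4309 in KO and 4006 in CON (1.08-fold higher). Ndufv2, its iron-sulfur partner, had 5004 in KO and 4848 in CON. In the arm that leads electrons to ubiquinone, Ndufs7 had 2554 in KO and 2429 in CON, Ndufs8 2566 in KO and 2630 in CON, and Ndufs3 1571 in KO and 1633 in CON. Each of these lay within 1.1-fold of its control value. Ndufs1, the largest core subunit, was not above background in either pool (123.4 in KO and 135.4 in CON), and no fold is given.

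Accessory subunits of complex I surround the core and are needed for its assembly and stability. The highest ratio was that of Ndufb6, a membrane arm subunit, with a signal of 315.0 in KO and 243.3 in CON (1.29-fold higher, log2 ratio 0.37). Ndufa1, an X-linked membrane subunit, had 4278 in KO and 3841 in CON (1.11-fold higher), and Ndufc2 had 4014 in KO and 3737 in CON (1.07-fold higher). The other detected Ndufb genes, all membrane arm subunits, had log2 ratios between -0.07 (Ndufb3) and 0.10 (Ndufb9).

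The lowest ratios in complex I belonged to Ndufs4 (2755 in KO and 3247 in CON, log2 ratio -0.24), Ndufv3 (3088 in KO and 3464 in CON, -0.17), Ndufa10 (-0.12) and Ndufa9 (-0.11). The value of Ndufs4, an accessory subunit near the NADH-oxidising end whose loss causes mitochondrial disease, rested on its brightest probe. Its 3 other probes were all higher in KO, with 1139, 960.2 and 520.7 in KO against 1067, 835.4 and 496.2 in CON (log2 ratios 0.09, 0.20 and 0.07). Averaged over its 4 probes the log2 ratio of Ndufs4 was 0.03. For Ndufv3, by contrast, all 3 detected probes were lower in KO, with log2 ratios of -0.17, -0.22 and a bound of -0.18. Ndufab1, the mitochondrial acyl carrier protein that also sits in complex I, was not above background (147.2 in KO and 146.0 in CON).

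**Figure D3:**
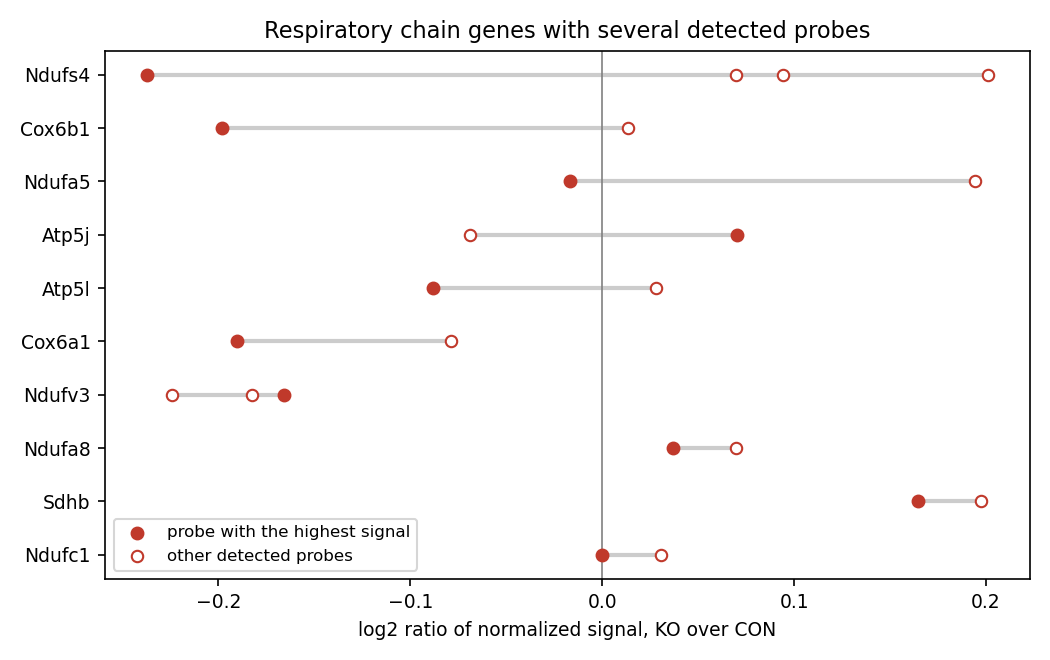
Log2 ratio of normalized signal, KO over CON, for each detected probe of 10 of the 11 respiratory chain genes with several detected probes, ordered by the spread between probes. Filled points are the probe with the highest signal and open points the others, and the dimmest Ndufv3 probe is a bound. The probes of Ndufs4 spread from -0.24 to 0.20, while those of Sdhb (0.16 and 0.20) and Ndufv3 stay on 1 side of 0.

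Complex II, succinate dehydrogenase, is the only complex with all its subunits encoded in the nucleus, and it also works in the citrate cycle. Sdhb, the iron-sulfur subunit, had 762.2 and 737.3 in KO against 679.9 and 643.1 in CON on its 2 detected probes, which is 1.12-fold and 1.15-fold higher. Both probes thus lay on the higher side in the KO pool. Sdhc, a membrane anchor, had 2316 in KO and 2202 in CON (1.05-fold higher). Sdhd, the other anchor, was above background in the CON pool alone (156.6 in KO and 178.3 in CON), and was at least 1.07-fold lower. The flavoprotein gene Sdha was not among the probes found by name, and the complex II median of 0.07 rests on 3 genes.

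In complex III, the cytochrome bc1 complex, 4 of the 6 detected genes lay above 0, the median log2 ratio was 0.02, and none reached 1.2-fold. Uqcrh, the hinge subunit, had 11300 in KO and 10464 in CON (1.08-fold higher). The large core proteins followed closely, with Uqcrc1 at 4559 in KO and 4426 in CON and Uqcrc2 at 4439 in KO and 4368 in CON. The catalytic cytochrome c1 gene Cyc1 had nearly the same signal in both pools (1973 in KO and 1983 in CON). Uqcr11 was at a log2 ratio of 0.02 and Uqcrb at -0.09 (1097 in KO and 1171 in CON). The Rieske iron-sulfur protein gene Uqcrfs1 (141.3 in KO and 155.6 in CON) and Uqcrq (132.6 in KO and 130.7 in CON) were not above background. The ratios of complex III had the smallest SD of the 5 complexes, 0.07 across 6 genes.

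Complex IV, cytochrome c oxidase, had the widest spread of the 5 complexes, with an SD of 0.22 across 13 genes, and a median of 0.00. Its nuclear subunits surround the catalytic core, which mitochondrial DNA encodes. Ndufa4 was counted here, since it was named as a complex I subunit and was later assigned to complex IV. Of the 13 detected genes 6 lay above 0, 6 below, and Cox5a at 0.

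Cox6c had the largest difference of all members. Its signal was 3015 in KO and 2055 in CON, 1.47-fold higher (log2 ratio 0.55). The gene has 1 probe, and its log2 ratio lay between 0.55 and 0.59 under every alternative tried. Cox7b, a small X-linked subunit, had 217.3 in KO and 164.3, just under the detection limit, in CON, and was at least 1.32-fold higher. Cox7a2 had 326.6 in KO and 287.7 in CON (1.14-fold higher). The membrane subunit Cox4i1, which regulates the enzyme by binding ATP, had 8262 in KO and 7522 in CON (1.10-fold higher).

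The bright subunits Cox7c (10494 in KO and 10980 in CON), Ndufa4 (10704 in KO and 11211 in CON) and Cox5b (7730 in KO and 8107 in CON) lay within 1.05-fold, each slightly lower in KO. Cox8a was at 6765 in KO and 6548 in CON, and Cox5a at 3790 in both. The lowest ratios of the complex were those of Cox6b1 and Cox6a1. Cox6b1 had 8465 in KO and 9709 in CON on its brighter probe (1.15-fold lower), whereas the other gave 5551 in KO and 5499 in CON. Both probes of Cox6a1 were lower in KO, at 7522 and 5753 in KO against 8583 and 6076 in CON (log2 ratios -0.19 and -0.08).

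Several complex IV subunits have isoforms with restricted expression, and most of these were at background. The heart and skeletal muscle isoforms Cox6a2 (139.8 in KO and 139.1 in CON) and Cox8b (156.1 in KO and 149.2 in CON), the lung isoform Cox4i2 (138.9 in KO and 138.8 in CON) and the testis isoform Cox8c (123.8 in KO and 127.9 in CON) were not above background. The muscle isoform Cox7a1 was weak, with 200.2 in KO and 206.6 in CON. Of 12 skeletal muscle markers with a probe 6 were detected, with signals that summed to 1300 in KO and 1217 in CON. Of these 6, 4 lay above 0, with a median log2 ratio of 0.07. Atp2a1 was at 0.17, Myl1 at 0.09, and Tnni2 and Mylpf at -0.02 each. Pvalb and Acta1, at bounds of 0.09 and 0.06, were above background in KO alone and entered through that pool. Of the 4 markers detected in both pools 2 lay above 0 and 2 below, with a median of 0.04. All 6 lay above 0 with median scaling, beside 65.0% of all genes. Actn3, Ckm, Myh4, Myh8, Tnnc2 and Tnnt3 were not above background, and the part of muscle RNA in the results was not tested. Cox6b2, an isoform known from testis, was detected on 1 of its 2 probes (229.7 in KO and 197.1 in CON, 1.17-fold higher). Ndufa4l2 and Cox7b2 were not among the probes found by name.

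**Figure D4:**
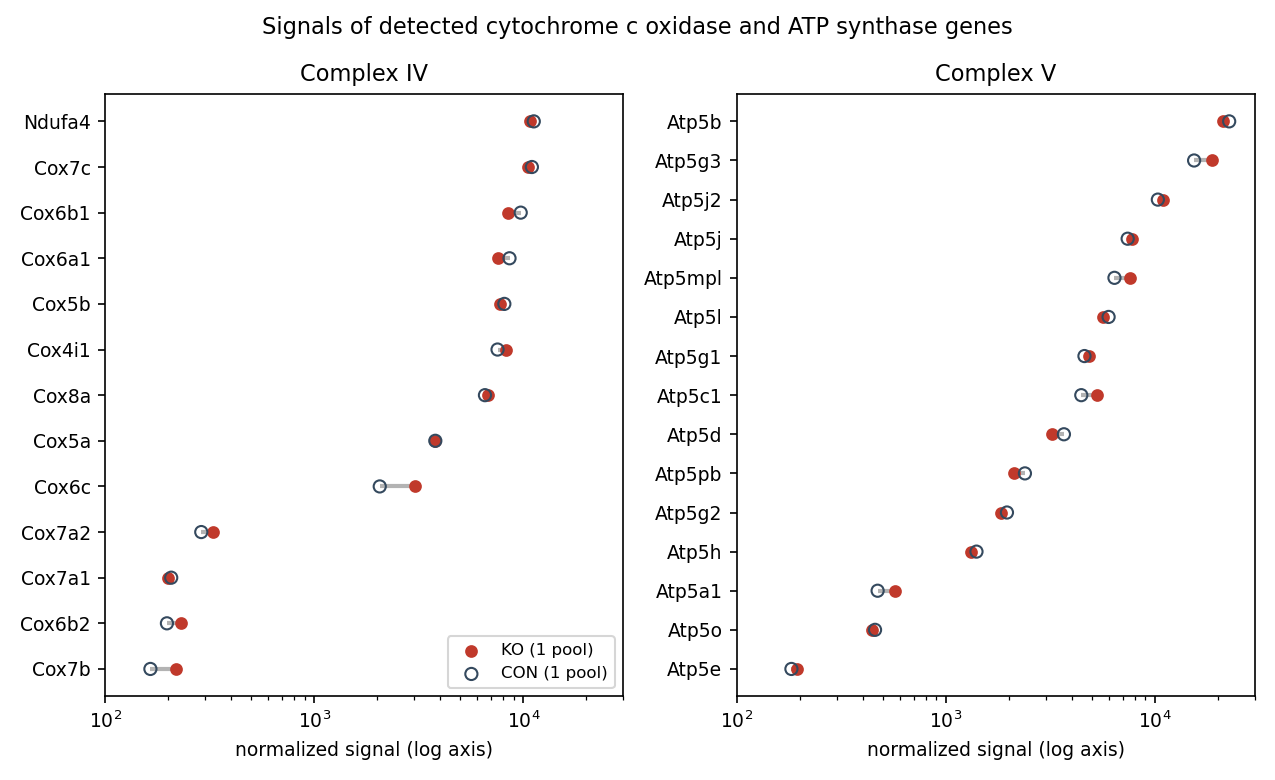
Normalized signal (log axis) in the KO pool (filled red) and the CON pool (open blue) for the detected genes of complex IV and complex V, 1 line for each gene, ordered by the CON signal. Most pairs of points overlap, while Cox6c (3015 in KO and 2055 in CON), Cox7b, Atp5g3 and Atp5a1 are set apart with the KO point to the right.

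In complex V, the ATP synthase, 8 of 15 detected genes were above 0 and 7 below, with a median log2 ratio of 0.07. With the mean over the probes of each gene the median was 0.00. The log2 ratios of Atp5g3, Atp5a1, Atp5mpl and Atp5c1 lay between 0.24 and 0.28, and those of the other 11 at or below 0.09, a grouping made after the values were seen.

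The catalytic head of the synthase (F1) contributed 5 genes. Atp5a1, the alpha subunit, had 570.0 in KO and 470.9 in CON (1.21-fold higher). Atp5c1, the rotating gamma subunit, had 5255 in KO and 4439 in CON (1.18-fold higher). The catalytic beta subunit gene Atp5b, the brightest of all members, went the other way, with 21135 in KO and 22635 in CON (1.07-fold lower). Atp5d, the delta subunit of the rotor stalk, was 1.14-fold lower (3223 in KO and 3666 in CON), and Atp5e, the epsilon subunit, was weak (193.3 in KO and 182.2 in CON). These subunits assemble in fixed proportions in the enzyme, and their transcript ratios lay on both sides of 0. Of the 5 only Atp5a1 passed the 1.19-fold that corresponds to 2 SDs between probes.

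Membrane and stalk subunits (Fo) numbered 10 detected genes with a median of 0.01. Of the 3 genes that encode the same c-ring protein with different import signals, Atp5g3 had 18731 in KO and 15382 in CON (1.22-fold higher), Atp5g1 had 4810 in KO and 4597 in CON (1.05-fold higher), and Atp5g2 had 1843 in KO and 1957 in CON (1.06-fold lower). Atp5g3 lies in the brightest range of the arrays, and its log2 ratio of 0.28 was 0.16 with median scaling of the values before normalization and 0.17 after background correction together with quantile normalization. Atp5mpl, a small proteolipid of the membrane part, had 7625 in KO and 6398 in CON (1.19-fold higher). Atp5pb, a peripheral stalk subunit, was 1.12-fold lower (2122 in KO and 2386 in CON). The stalk genes Atp5h and Atp5o had log2 ratios of -0.08 and -0.05. Atp5j, also of the stalk, was at 0.07 on its brightest probe (7767 in KO and 7398 in CON) and at -0.07 on its other detected probe. Atp5l was at -0.09 on its brighter probe and at 0.03 on the other, and Atp5k was not above background.

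Assembly factors and other genes caught by the same names were slightly higher or even. Cox7a2l, which helps join complexes III and IV into supercomplexes, had 2887 in KO and 2519 in CON (1.15-fold higher). The complex I assembly factors Ndufaf1, Ndufaf5 and Ndufaf7 had log2 ratios of 0.05, 0.06 and -0.02. Dmac2l, listed as Atp5s, was at 0.06, and the pseudogene Ndufs5-ps at 0.09. Pseudogenes named after a member exist in the RefSeq table for 9 members, Atp5c1, Atp5k, Atp5l, Atp5pb, Cox5b, Cox7c, Ndufa12, Ndufab1 and Uqcrh, and probes of such genes may also bind transcripts of the copies.

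Between the complexes, the median log2 ratios lay within 0.07 of each other, from 0.00 in complexes I and IV to 0.07 in complex II, beside 0.01 for all genes. Summed over the detected genes, the signal in KO was 0.996 times that in CON for complex I, 1.06 for complex II, 1.04 for complex III, 0.976 for complex IV and 1.04 for complex V. The 53 genes with a mean signal of at least 1000 had a median of 0.00, with 25 above 0 and 26 below. All 2083 genes that bright had a median of 0.01, with 52.0% above 0. The 21 dimmer members had a median of 0.06, with 15 above 0, and the share over all dimmer genes was not computed. Of the 5 members past 1.2-fold, Cox6c and Atp5g3 had a mean signal of at least 1000. The 3 X-linked members, Cox7b, Ndufa1 and Ndufb11, were all above 0 (bound of 0.40, 0.16 and 0.02). The share over all X-linked genes was not computed.

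Other genes that serve the respiratory chain were also close to even. Their counts above 0 depend on the scaling, since median scaling of the values before normalization moved the median of all genes from 0.01 to 0.05. The share of all genes above 0 moved from 52.1% to 65.0%. Of 30 detected assembly factors outside the naming rule 20 lay above 0, with a median of 0.02 (24 and 0.07 with median scaling). Coa7 was above background in KO alone and entered through that pool. Of the 29 assembly factors detected in both pools 19 lay above 0, with a median of 0.02. The highest were Sdhaf4, a complex II assembly factor (681.7 in KO and 554.9 in CON, 1.23-fold higher), and Ecsit, a complex I assembly factor (400.7 in KO and 334.6 in CON, log2 ratio 0.26). The lowest were Sdhaf3 (1.14-fold lower) and the copper chaperone gene Cox17 (1823 in KO and 2071 in CON, 1.14-fold lower). Electron carriers and coenzyme Q synthesis genes had a median of 0.00 over 15 genes, 7 of them above 0, and with median scaling 9 lay above 0 and the median was 0.03. Within this list Coq2, which attaches the side chain of coenzyme Q, was 1.25-fold higher (922.5 in KO and 737.0 in CON) and Coq6 1.21-fold higher on its brightest probe, whereas its lowest probe was at -0.15 in log2 ratio. Pdss1, which makes the side chain, was 1.26-fold lower (287.5 in KO and 362.3 in CON), and Coq8b was 1.18-fold lower.

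The mitochondrial ribosome, which translates the subunits encoded by mitochondrial DNA, had a median log2 ratio of 0.02 over 68 detected genes, with 39 above 0 and 29 below. With median scaling 57 lay above 0 and 11 below, with a median of 0.08, beside 65.0% of all genes above 0. Its extremes were Mrps23 (0.24) and Mrpl23 (0.23) on the higher side, and Mrps28 (-0.28) and Mrpl55 (-0.25) on the lower side. Regulators of mitochondrial biogenesis had a median of 0.05 over 17 detected genes, 11 of them above 0 (0.12 and 12 with median scaling). Myc was above background in KO alone and entered through that pool. Of the 16 regulators detected in both pools 10 lay above 0, with a median of 0.04. Tfam, the packaging and transcription factor of mitochondrial DNA, had 456.0 in KO and 368.8 in CON on its brighter probe (1.24-fold higher), and its other probe was at 0.04 in log2 ratio. Ssbp1, the mitochondrial single-strand DNA binding protein, was 1.21-fold higher on its brighter probe and at 0.04 on the other. Gabpb1 was 1.16-fold lower and Tfb1m 1.15-fold lower. Among the factors whose motifs were searched, Nrf1 was at -0.09, Gabpa at 0.24 and Esrra at 0.04, while Yy1 was not above background. The coactivator gene Ppargc1a was not above background either, and Ppargc1b was at -0.11.

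**Figure D5:**
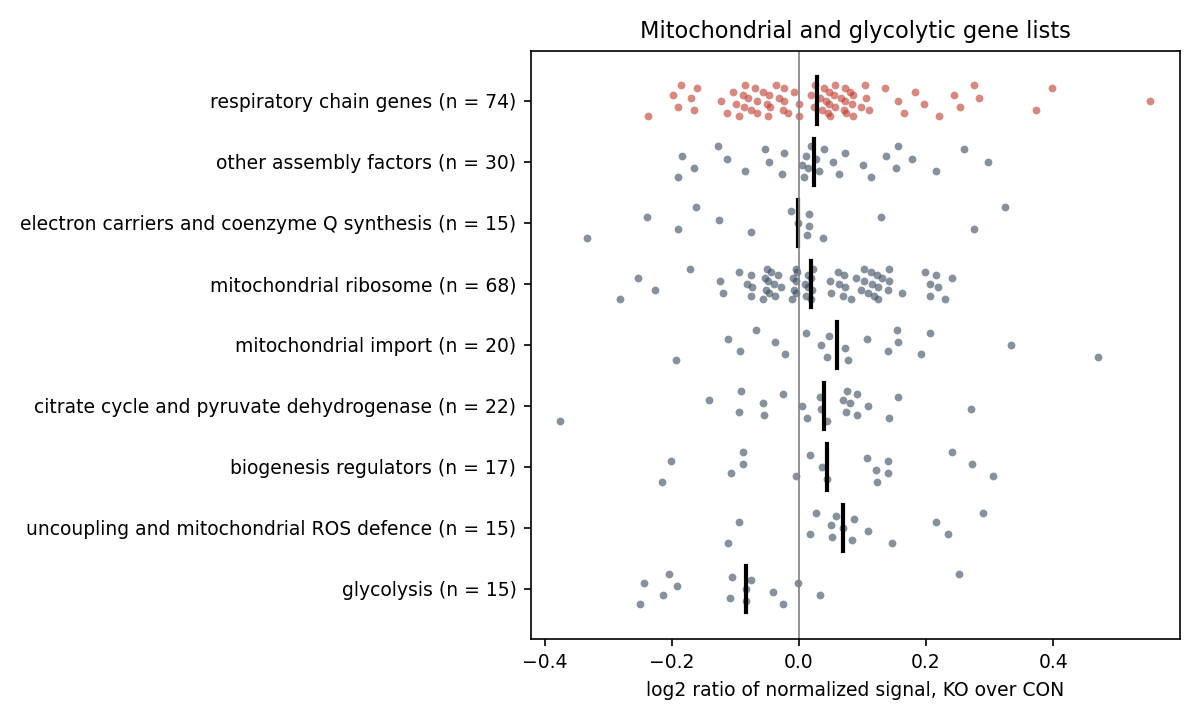
Log2 ratio of normalized signal, KO over CON, for detected genes of the respiratory chain (red) and of 8 further lists (blue). Each point is 1 gene and black bars are medians. The respiratory chain median is 0.03, the other mitochondrial lists lie between 0.00 and 0.07, and glycolysis lies at -0.08.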

How the data were processed

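Transcript signals were measured in 1 KO pool and 1 CON pool. The authors deposited an intensity per probe before and after normalization, with a detection p-value per probe, per the file headers. Per the submitters' processing notes GenomeStudio 2011.1 was used. How the values were normalized is not given in the sources used. Both medians were 148.9 after normalization (before it, 166.1 in KO and 161.3 in CON). Normalized values started at 106.2 in both pools, so a background is left in the signal, and this brings ratios of weak probes closer to 1.

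A probe was called detected at p 0.01 or lower. Lower intensities were set to the dimmest detected signal of the array (165.9 in KO and 164.9 in CON), and log2 values were taken. Genes entered with a detected probe in at least 1 pool, and the brightest such probe stood for the gene. Where 1 pool was not above background the ratio is a bound, written as "at least". Gene names were updated by gene ID (16938 probes) and then accession (7420 probes) through the RefSeq table of GRCm38.p6, and 1339 probes kept the name in the file. Of the 105 member probes, 89 matched by the name in the file and 16 by the current name alone.

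No significance test was made, since precision is limited by the number of arrays. Named members are those at least 1.2-fold apart, the 4 highest and 4 lowest of each complex among genes detected in both pools, core and catalytic subunits, isoforms and genes whose probes differed by over 0.3 in log2 ratio, and in other lists the 2 highest and 2 lowest. Further genes were named after their values were seen, and the values of 1 member are not reported here. The members and lists were chosen with earlier results of these data known. Alternatives covered normalization, background, centring, detection filter, floor and probe choice. The calculation was tested on simulated data. R 4.3.3 with limma 3.58.1 and Python 3.11.15 were used.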

Additional observations from a re-analysis of the deposited data

How the results depend on the processing

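No paired analysis was possible because each genotype had 1 sample, and no replicate could be left out. The median log2 ratio of the members lay between 0.01 (no filter on detection) and 0.07 (median scaling of the values before normalization), and 0.03 as reported. The count at least 1.5-fold higher in KO, 0 as reported, was 1 with median scaling (Cox6c) and 2 after normexp background correction with quantile normalization (Cox7b and Ndufb6). Over all genes the share was 0.187% as reported, 0.269% with median scaling and 1.35% with that pair of steps. The count at least 1.2-fold lower, 0 as reported, was 1 with that pair of steps (Sdhd, at -0.33), where 10.5% of all genes were at least 1.2-fold higher and 10.2% lower. The count at least 1.2-fold higher ran from 4 (genes detected in both pools) to 7 (median scaling), beside 5. Over all genes these settings gave 3.04% and 6.56%, beside 2.91%. Complex medians moved by at most 0.07 under each alternative. Background correction with quantile normalization gave 1.11 for Cox7b and 0.71 for Ndufb6 in log2 ratio, and the cause was not tested. Members with signals near the detection limit have the least precise ratios.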

Other observations

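Most genes of 4 further metabolic lists lay within 1.2-fold between the pools. Of all genes detected 52.1% lay above 0, or 65.0% with median scaling of the values before normalization. Of 20 detected mitochondrial import genes 14 lay above 0 (median log2 ratio 0.06, and 16 of 20 with median scaling of the values before normalization). Tomm70a (190.3 in KO and 158.2 in CON) was above background in KO alone and entered through that pool. Of the 19 import genes detected in both pools 13 lay above 0, with a median of 0.05. The import list was led by the chaperonin gene Hspe1 (459.8 in KO and 331.7 in CON, 1.39-fold higher) and the X-linked Timm8a1 (1.26-fold higher). Timm10b (-0.19) and Pam16 (-0.11) were the lowest. The list of uncoupling, carrier and reactive oxygen defence genes had 13 of 15 above 0 (median 0.07). It held the phosphate carrier gene Slc25a3 (1363 in KO and 1115 in CON, 1.22-fold higher), the channel gene Vdac3 (1.18-fold higher), Gpx4 (-0.11) and Txn2 (-0.09). With the mean over probes 10 of these 15 lay above 0. Citrate cycle and pyruvate dehydrogenase genes had 15 of 22 above 0 (median 0.04, and 18 of 22 with median scaling), with Idh3a 1.21-fold higher, Suclg2 at 0.16, pyruvate carboxylase (Pcx) 1.30-fold lower (226.9 in KO and 294.3 in CON) and Pdk2 at a bound of -0.14.

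Of 15 detected glycolysis genes 13 were lower in KO (median log2 ratio -0.08), beside 47.5% below 0 over all genes. Aldoa, the muscle-type aldolase, had 2281 in KO and 2712 in CON (1.19-fold lower), and Pgam1 515.4 in KO and 610.5 in CON (1.18-fold lower). The glucose transporter gene Slc2a1 was 1.19-fold higher (1103 in KO and 927.0 in CON), and Hk2 was at 0.03. Hk1 (160.2 in KO and 192.5 in CON) and Pgk1 (140.8 in KO and 174.7 in CON) were above background in CON alone, and were at least 1.16-fold and at least 1.05-fold lower. None of the other 13 reached 1.2-fold, and 11 of them lay below 0. With median scaling of the values before normalization 10 of the 15 lay below 0 and the median was -0.04. Under that scaling 65.0% of all genes lay above 0, with a median of 0.05. In the same pools the brown adipocyte marker Cidea, which sebocytes also express, was 1.28-fold lower (4197 in KO and 5363 in CON), Elovl3 1.16-fold higher, and Ucp1 was not above background.

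Other cell type markers were few, and most lay within 1.2-fold. All 5 detected Langerhans and myeloid markers lay above 0 on their brightest probe (median 0.12), with signals that summed to 12384 in KO and 11709 in CON. The 4 with several probes each had a probe below 0 (Cd74 -0.06, Cd207 -0.02, H2-Ab1 -0.05 and Csf1r -0.15), and with the mean over probes 4 of 5 lay above 0 and the median was 0.02. All 4 detected T cell markers lay below 0 (median -0.15, sums of 2551 in KO and 2795 in CON). Adipocyte markers had 3 of 4 below 0, with a median of -0.22 and sums of 2889 in KO and 3024 in CON. Of the 3 adipocyte markers detected in both pools 2 lay below 0, with a median of -0.34. Over all genes detected 52.1% lay above 0 and 47.5% below. Cfd (227.1 in KO and 291.0 in CON) was 1.28-fold lower. Pparg was 1.27-fold lower on its brightest probe, and its other probe was at -0.03. Over all genes 2.95% were at least 1.2-fold lower. Lep, above background in CON alone, was at a bound of -0.11, and Lpl (1717 in KO and 1560 in CON) was 1.10-fold higher. The 2 detected fibroblast markers, Dcn and Col1a1, summed to 672.0 in KO and 688.9 in CON. The part of these cell types in the respiratory chain values was not tested.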
